A study of Mus musculus with 2 samples.

Results

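Neutrophils high in Retnlg, Prok2 and Wfdc17 were 346 of the 1727 neutrophils that met fixed expression limits, among 5187 retained cells of 7951 barcodes. They were chosen by their score, the share of a cell's UMIs (unique molecular identifiers, each standing for 1 captured transcript) that came from Retnlg, Prok2, Wfdc17, Wfdc21 and Slc2a3. The highest 20% of scores, with both libraries pooled, made the members, and the other 1381 neutrophils were the cells they were set against. Cells entered as neutrophils if S100a8 and S100a9 gave at least 1.5% of UMIs and 4 other sums stayed low: macrophage genes (C1qa, C1qb, C1qc and Apoe, under 0.5%), granule genes (Camp, Ngp and Ltf, under 1%), Il1a, Tnf and Il23a (under 0.5%), and interferon genes (Isg15, Rsad2, Ifit1, Ifit3, Cmpk2 and Usp18, under 0.6%).

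The cells came from 4T1 mammary tumors of BALB/c mice, recorded as 6 to 8 weeks old, and were collected on magnetic beads with an antibody to GR1, an antigen shared by Ly6G and Ly6C. 4T1P is the parental line, whose tumors did not respond to anti-PD1, and 4T1M is a mutagenized clone of it whose tumors did respond; tumors were taken before any treatment. Each condition is 1 droplet library from pooled mice, whose number the sources used here give differently, and 4T1M stands for 1 clone, so that clone, library and response cannot be told apart. No spread between animals could be estimated and no test between the conditions was possible; every interval given is a 95% interval for counting error only.

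Neutrophils leave the bone marrow with granules that were filled in sequence during maturation, first the primary, then the specific and last the gelatinase granules, and the mRNA of granule proteins is largely lost by the time a cell circulates. Mature cells in an inflamed tissue or tumor turn on chemokine, cytokine and metabolic genes within hours. Retnlg encodes a secreted resistin-like protein found in blood and marrow neutrophils, Prok2 (Bv8) a secreted prokineticin known as a neutrophil product that promotes vessel growth in tumors, and Wfdc17 and Wfdc21 small secreted proteins with the whey acidic protein fold. Slc2a3 is the glucose transporter GLUT3.

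The stretches just upstream of the 3 genes that name these cells are shown with that of Ngp, the granule gene with the largest mean ratio between members and other neutrophils, since all 4 were higher in members. They are RefSeq promoter entries (build GRCm38.p6), 5′ to 3′ on the strand of the gene, and end where the RefSeq or the GENCODE gene begins, whichever comes first. Capitals mark the letters TTGCNNAA, resembling the site that C/EBP factors bind, or their reverse complement TTNNGCAA. The stretches are chr16:48872358-48872607 (+) for Retnlg, chr11:83703806-83703990 (+) for Wfdc17, chr6:99726393-99726642 (-) for Prok2 and chr9:110419558-110419746 (+) for Ngp.
Retnlg: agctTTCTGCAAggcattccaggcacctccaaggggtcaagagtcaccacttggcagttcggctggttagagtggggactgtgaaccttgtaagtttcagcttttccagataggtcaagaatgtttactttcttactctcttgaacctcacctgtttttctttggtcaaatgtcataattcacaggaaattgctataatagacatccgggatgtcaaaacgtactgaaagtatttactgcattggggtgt
Wfdc17: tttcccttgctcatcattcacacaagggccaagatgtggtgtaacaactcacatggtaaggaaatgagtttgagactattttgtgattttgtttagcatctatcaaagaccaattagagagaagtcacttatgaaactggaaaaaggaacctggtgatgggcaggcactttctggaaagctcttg
Prok2: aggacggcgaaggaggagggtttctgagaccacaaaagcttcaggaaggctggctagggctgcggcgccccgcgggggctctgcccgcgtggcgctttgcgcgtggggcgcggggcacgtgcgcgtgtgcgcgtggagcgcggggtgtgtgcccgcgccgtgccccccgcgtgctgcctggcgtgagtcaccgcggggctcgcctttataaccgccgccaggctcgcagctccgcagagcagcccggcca
Ngp: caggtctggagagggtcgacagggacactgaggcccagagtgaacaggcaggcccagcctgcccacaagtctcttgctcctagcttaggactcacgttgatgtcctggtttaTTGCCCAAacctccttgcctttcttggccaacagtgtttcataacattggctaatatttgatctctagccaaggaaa
In the 250 bases before the RefSeq gene start, Retnlg had 1 match, which began 246 bases before the start, and Ngp had 2, which began 138 and 11 bases before it, the second inside the GENCODE gene and so not printed. Wfdc17 and Prok2 had none. Of all 32851 promoter entries, 9.56% held a match in that window, against 4 of 15 entries of the genes highest in members and 3 of 10 entries of the genes lowest in them, named further on.

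Members were a like share of the neutrophils within the limits in both tumors over cells of all depths. They were 108 of 517 neutrophils in 4T1P (20.9%, exact binomial interval 17.5% to 24.7%) and 238 of 1210 in 4T1M (19.7%, 17.5% to 22.0%), a log2 ratio of -0.09 with an interval of -0.37 to 0.21. Of all retained cells they made up 6.26% and 6.88%. The limits left out unlike numbers of other neutrophils, which are not in the first shares. Those high in Il1a, Tnf and Il23a were 23 cells in 4T1P and 226 in 4T1M, interferon-high ones 51 and 168, and granule-rich ones 18 and 46. The scores ran on without a gap at the limit of 2.65% of UMIs, where the 5 cells just outside scored 2.63% to 2.64% and the 5 just inside 2.65% to 2.67%. The ratio depended on these choices: among cells of 2000 to 6000 UMIs it was 16.1% in 4T1P and 21.2% in 4T1M (log2 ratio 0.40, interval 0.01 to 0.83), and with the top 10% of scores 12.0% and 9.17% (-0.39, -0.77 to 0.04).

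**Figure D1:**
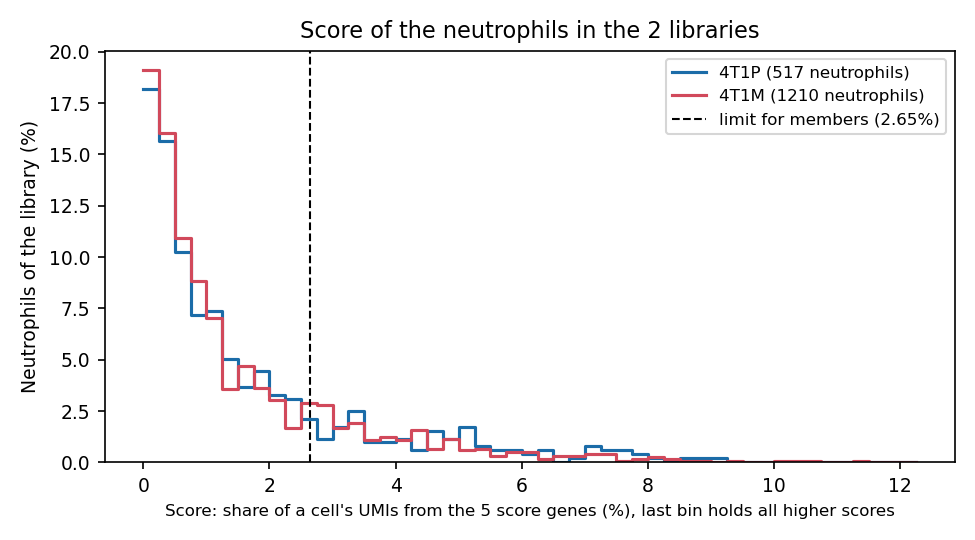
Histogram of the score (x axis, share of a cell's UMIs from the 5 score genes, %) over the neutrophils of each library (y axis, % of that library's neutrophils, bins of 0.25), with the limit for members as a dashed line. The counts thin out from the lowest scores in both libraries, and 20.9% of 4T1P and 19.7% of 4T1M neutrophils lie at or above 2.65%.

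The libraries held 21855657 UMIs (4T1P) and 24303957 UMIs (4T1M). Members gave 596203 UMIs in 4T1P and 1049957 in 4T1M, and the other neutrophils 1310556 and 3354917. A member was a deeper cell, with a median of 4686 UMIs in 4T1P and 3932 in 4T1M against 2765 and 2700 in the others. Mitochondrial transcripts took a median of 2.35% of UMIs in members and 2.92% in the others in 4T1P, and 1.73% and 1.89% in 4T1M. Whether depth had a part in the differences below was not tested beyond the values given for cells of like depth.

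Markers of neutrophils were present in the members and those of other cells were scarce. Part of this was set by the choice of neutrophils, which put a lower limit on S100a8 and S100a9. It also put an upper limit on Apoe with C1qa, C1qb and C1qc, in members and others alike. All 11 neutrophil markers of a fixed list had UMIs in both libraries' members, with S100a8 and S100a9 together at a median of 21.2% of UMIs in 4T1P and 20.4% in 4T1M, against 8.51% and 6.81% in the other neutrophils. By log2 ratio of members over the others, 5 of the 11 were above and 6 below equality in 4T1P (median log2 ratio -0.06), and 8 above and 3 below in 4T1M (median log2 ratio 0.16), Csf3r, G0s2 and Hdc being below in both by CPM (medians of 0.41 and 0.63 with TMM). The 15 monocyte and macrophage markers summed to 560 CPM (counts per 1000000 UMIs of the same cells) in members and 932 CPM in the others in 4T1P, and to 527 and 1123 CPM in 4T1M, with Apoe the most abundant (144 and 142 CPM in members) and Fcrls at 0 in 4T1M. Markers of B cells were at 0 in 4T1P members and at 38.1 CPM in 4T1M members, and those of tumor epithelium at 8.39 and 10.5 CPM. Markers of dendritic cells summed to 283 and 386 CPM in members, mostly Cd74, with Flt3, Xcr1 and Clec9a at 0, against 704 and 707 CPM in the others. Those of stroma and endothelium (16.8 and 16.2 CPM), of red cells and platelets (20.1 and 14.3 CPM) and of mast cells, basophils and eosinophils (3.35 and 2.86 CPM) were below the other neutrophils as well. Of 12 markers of T and NK cells, Cd3d was at 40.3 CPM in 4T1P and 51.4 CPM in 4T1M members, against 9.16 and 7.75 CPM in the others, while Cd3e, Cd3g, Trbc1 and Trbc2 were at 0 in members of both libraries. No barcode was shared between the libraries' neutrophils.

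Of the 8 genes listed as markers of these cells, 5 made the score and their level is what chose the cells. Retnlg was at 23346 CPM in members and 1880 CPM in the other neutrophils of 4T1P, and at 20668 and 2215 CPM in 4T1M. Wfdc17 was at 20238 and 5396 CPM in 4T1P, and at 19315 and 4823 CPM in 4T1M. Prok2 stood at 1511 and 459 CPM, then 1336 and 452 CPM. In all 3 the members of either library were above the other neutrophils of both, with log2 ratios of 3.63 and 3.22 for Retnlg, 1.91 and 2.0 for Wfdc17, and 1.72 and 1.56 for Prok2. Wfdc21 was at 3319 against 958 CPM in 4T1P and 2994 against 936 CPM in 4T1M, and Slc2a3, at 444 against 243 CPM and 305 against 187 CPM, was less than 2-fold higher.

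The 3 markers that were not in the score were also higher in members by CPM. Stfa3 was so by more than Stfa2 in both libraries, and by more than Rdh12 in 4T1P only. Stfa2 and Stfa3 encode stefins, inhibitors of cysteine proteases, and Rdh12 a retinol dehydrogenase. Stfa3 was at 587 CPM against 174 CPM in 4T1P and 451 against 214 CPM in 4T1M, log2 ratios of 1.75 and 1.08. It was not past 2-fold in 4T1M among cells of 2000 to 6000 UMIs (0.12, interval -0.14 to 0.37) or with Retnlg out of the score (0.18), nor in either library among cells without UMIs of Camp, Ngp or Ltf (0.20 in 4T1P and 0.43 in 4T1M). Stfa2 (log2 ratio 0.70 and 0.95) and Rdh12 (0.96 and 1.11) were not past 2-fold in both libraries by CPM, but were with TMM (1.18 and 1.41 for Stfa2, 1.44 and 1.57 for Rdh12) and DESeq2 scaling, as was Slc2a3 (1.35 and 1.17 with TMM). Most members had no Stfa3 UMI, 22.2% of them having one in 4T1P and 23.9% in 4T1M, against 15.6% and 18.6% of the other neutrophils. The stefin genes lie near each other on chromosome 16 and resemble each other, so that reads may be split between them and their single values are uncertain.

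The score rested on 2 genes. Retnlg gave 47.8% of the members' score UMIs in 4T1P and 46.3% in 4T1M, Wfdc17 gave 41.4% and 43.3%, and Slc2a3 0.910% and 0.683%. Retnlg outnumbered Wfdc17 in 50% of the members of 4T1P and in 42.0% of those of 4T1M, so that members were a mixture of cells led by either gene. UMIs of all 5 score genes were found in 50.9% and 42.0% of members. Without Retnlg in the score, 264 of the 346 cells were still chosen, and without Wfdc17 271, against 338 without Prok2, 341 without Wfdc21 and 343 without Slc2a3.

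Per cell, the ranges between the quartiles of Retnlg did not overlap: in 4T1P its quartiles were 0.905% and 2.97% of UMIs in members and 0 and 0.233% in the others, and in 4T1M 0.785% and 2.58% against 0 and 0.229%. After each cell was thinned to 1000 UMIs, 98.1% of members in 4T1P and 98.3% in 4T1M held a Retnlg UMI, against 49.1% and 45.1% of the other neutrophils (99.1%, 99.6%, 60.1% and 61.0% unthinned; 4 of the other cells of 4T1M were too shallow, as were 18 and 31 macrophages). In macrophages, chosen by their C1q and Apoe share and taken as the level of free RNA, it was 3.24% and 2.74% thinned, and 12.3% and 17.0% unthinned at median depths of 9305 and 9440 UMIs. For Prok2 the thinned shares were 54.6% and 52.1% of members, 21.5% and 22.5% of other neutrophils, and 0.486% and 0.822% of macrophages. Wfdc17 was less specific, being found after thinning in 100% and 99.6% of members, 83.4% and 83.9% of other neutrophils, and 38.4% and 34.2% of macrophages. Ly6g, which took no part in the choice, was found after thinning in 20.4% and 24.8% of members, in 2.93% and 3.10% of the others, and in 0% and 0.274% of macrophages (0 of 617 cells in 4T1P, an exact binomial upper limit of 0.596% for a UMI at that depth). Unthinned it was found in 44.4% and 46.6% of members, 6.11% and 8.54% of the others, and 0.472% and 1.05% of macrophages.

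Across all genes, members carried more RNA of several granule and S100 proteins and less of several chemokines and other inflammatory genes. Of 3116 genes with at least 50 UMIs in each library, 65 were at least 2-fold higher in members in both libraries (2.09%) and 260 at least 2-fold lower in both (8.34%), and 0 were past 2-fold in opposite directions. Since the score chose the cells on the same UMIs, these counts and the values that follow describe the members and carry no test. A few genes took much of the members' RNA, the 10 most abundant giving 40.6% of UMIs in 4T1P and 39.2% in 4T1M against 27.3% and 28.1% in the others, and the median gene was lower by the same scaling (log2 ratio -0.45 in 4T1P and -0.35 in 4T1M). With edgeR's TMM factors the split became 180 higher and 53 lower, and with DESeq2's size factors 171 and 58; all of the 65 higher genes were among the higher ones under both. List medians are therefore given as differences from the median gene of the same library, unless they are named as median log2 ratios.

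Among genes outside the rule, Ifitm6, a member of the interferon-induced transmembrane family, had the highest mean ratio over both libraries of those with at least 100 CPM. It was at 2818 CPM in members and 104 CPM in the others in 4T1P, and at 1796 and 202 CPM in 4T1M (log2 ratios 4.76 and 3.15). Ly6g, the surface antigen of mouse neutrophils to which GR1 antibodies bind, was at 485 and 26.7 CPM in 4T1P and at 423 and 49.2 CPM in 4T1M (4.16 and 3.10). Cd177, a surface protein of neutrophils stored in specific granules, was at 255 and 22.1 CPM, then 220 and 43.8 CPM (3.51 and 2.33). In all 3 the members of the 2 libraries were closer to each other than to the other neutrophils, and the other neutrophils of 4T1M were higher than those of 4T1P. Cd177 lies on chromosome 7 near Ceacam10 (24743983 to 24760311 and 24777206 to 24784657, GRCm38), a carcinoembryonic antigen family gene that was at 104 against 18.3 CPM in 4T1P and 101 against 19.4 CPM in 4T1M (2.49 and 2.38).

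The other 10 of the 14 highest genes described had log2 ratios of 1.57 to 3.14 in either library. They included secreted defense proteins of granules: Mmp8, neutrophil collagenase (671 against 153 CPM in 4T1P, 826 against 198 CPM in 4T1M), Lcn2, which binds bacterial siderophores (5423 against 1167 CPM, 4147 against 1396 CPM), and Pglyrp1, which binds peptidoglycan (1174 against 277 CPM, 1120 against 285 CPM). Anxa1, an annexin with anti-inflammatory actions, was at 2075 against 440 CPM and 1336 against 358 CPM, and the calcium-binding S100a6 at 12018 against 2902 CPM and 10926 against 3148 CPM. The remaining 5 were Adpgk (ADP-dependent glucokinase), Aldh2 (mitochondrial aldehyde dehydrogenase), Hacd4 (elongation of very long chain fatty acids), Mapk13 (the delta form of p38) and Cnn2 (a calponin). In 4T1P many of the 14 reached 50 UMIs only with the members' UMIs, so that the difference itself helped to bring them in. These were Ly6g (289 in members and 35 in the others), Adpgk (65 and 20), Cd177, Aldh2, Ceacam10, Hacd4 and Mapk13. All 14 stayed past 2-fold in both libraries with TMM or DESeq2 scaling, but not under every choice of cells. With Retnlg out of the score, Aldh2 (0.61), Ceacam10 (0.94), Anxa1 (0.94), Hacd4 (0.96) and Mapk13 (0.97) were under 2-fold in 4T1M. Without granule UMIs, Ceacam10 (0.54), Mapk13 (0.34) and Pglyrp1 (0.94) were so in 4T1P, and among cells of 2000 to 6000 UMIs Ceacam10 (0.86, interval -0.58 to 2.04) and Pglyrp1 (0.96).

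**Figure D2:**
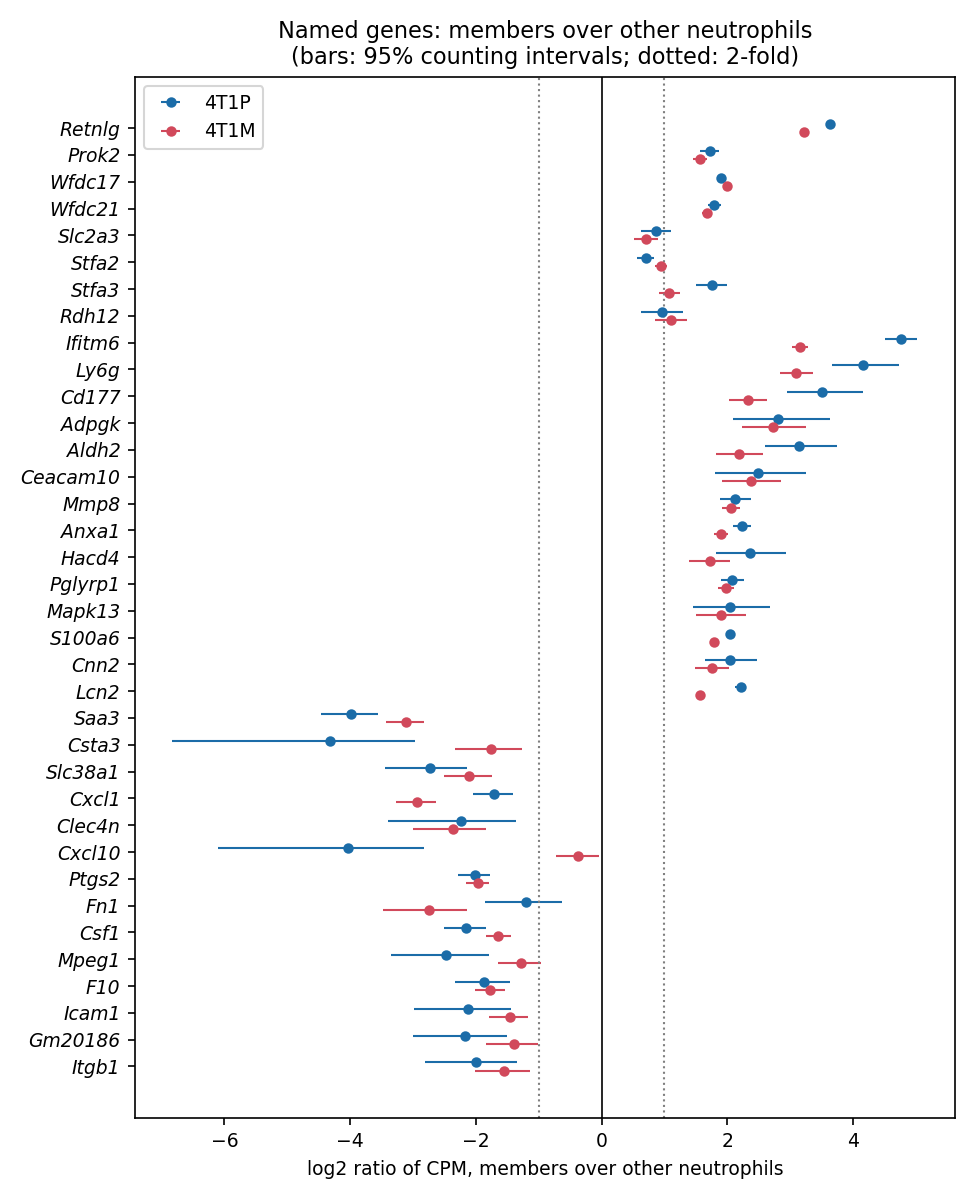
Log2 ratio of CPM, members over other neutrophils (x axis), for the score genes, the other markers, and 14 top and 14 bottom genes by mean ratio (y axis) in 4T1P (blue) and 4T1M (red); bars are 95% counting intervals and dotted lines mark 2-fold. The ratios of Ifitm6, Ly6g and Cd177 are larger in 4T1P than in 4T1M, and that of Cxcl10 is -4.04 in 4T1P but -0.37 in 4T1M.

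Granule genes were among the lists with the highest medians. Of 14 late granule and gelatinase genes compared, 6 were past 2-fold higher in both libraries and 1 (Cd63, a membrane protein of primary granules) lower, with a median 1.73 above the median gene in 4T1P and 1.20 in 4T1M. Besides Mmp8, Cd177, Anxa1 and Lcn2, the 6 were Padi4, the histone-citrullinating enzyme of neutrophil extracellular traps (80.5 against 9.16 CPM in 4T1P, 42.9 against 5.66 CPM in 4T1M), and Mmp25, a membrane-bound protease (82.2 against 21.4 CPM, 94.3 against 40.2 CPM). Padi4 reached 50 UMIs only with the members' UMIs (48 in members and 12 in the others of 4T1P, 45 and 19 in 4T1M). So did Cd177 in 4T1P (152 and 29), so that the difference itself helped to bring both into the count. Mmp9, gelatinase B, had log2 ratios of 1.37 and 0.89, and Itgam, the alpha chain of Mac-1, of 0.08 and -0.05.

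Of 6 early granule genes, 3 were past 2-fold higher in both libraries: Ngp, Camp and Serpinb1a. The minimum of 50 UMIs was set on members and others together. In 4T1P all 3 met it only through the members: Ngp (732 UMIs in members and 20 in the others), Camp (79 and 9) and Serpinb1a (50 and 3). The difference itself thus brought them into the list. The list's median log2 ratio was 2.98 in 4T1P and 1.56 in 4T1M, but -0.58 and 0.10 among cells of 2000 to 6000 UMIs, and -0.85 and -0.30 among cells without UMIs of Camp, Ngp or Ltf, which leaves these 3 genes out by construction. Ngp and Camp are proteins of the specific granules and Serpinb1a inhibits neutrophil serine proteases; Ngp and Camp, with Ltf, also set an upper limit in the choice of neutrophils, so that cells rich in them were already left out. Ngp was at 1228 against 15.3 CPM in 4T1P and 530 against 73.6 CPM in 4T1M, and Camp at 133 against 6.87 CPM and 73.3 against 15.8 CPM. Serpinb1a was at 83.9 against 2.29 CPM and 37.1 against 6.26 CPM, the value in the other neutrophils of 4T1P resting on 3 UMIs (log2 ratio 4.99, interval 3.57 to 7.52). Elane and Mpo, enzymes of primary granules, were under the minimum of UMIs and were not compared.

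The granule RNA was held by few members. In 53.7% of members in 4T1P and 63.4% in 4T1M no UMI of Camp, Ngp or Ltf was found, against 89.2% and 85.8% of the other neutrophils. At least 0.1% of UMIs came from these 3 genes in 17.6% and 13.9% of members and in 0.733% and 0.926% of the others, and the 10% of members richest in them held 73.8% and 76.6% of the members' UMIs of the 3 genes. With the comparison kept to neutrophils without any such UMI (209 members among 1408 cells), 24 of 2627 genes were past 2-fold higher and 111 lower in both libraries. Ly6g was then at 121 against 23.5 CPM in 4T1P and 203 against 36.4 CPM in 4T1M, Ifitm6 at 852 against 97.3 CPM and 771 against 124 CPM, Mmp8 at 502 against 139 CPM and 601 against 171 CPM, and Retnlg at 18997 against 1853 CPM and 15458 against 1921 CPM. Ly6g, Ifitm6 and Mmp8 were thus also higher in members without detected granule RNA, at ratios below those over all members. In cells of 2000 to 6000 UMIs their log2 ratios were 2.05 and 2.36 for Ly6g, 2.41 and 2.62 for Ifitm6, and 1.84 and 2.04 for Mmp8, in 4T1P and 4T1M.

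S100 and Ifitm genes were above equality in both libraries, except S100a10, but fewer passed 2-fold. Of 6 S100 genes, S100a6, S100a8 and S100a9 were past 2-fold higher in both libraries and S100a10, the partner of annexin A2, past 2-fold lower (5.03 against 51.1 CPM in 4T1P, 10.5 against 67.4 CPM in 4T1M). S100a8 was at 103168 against 33670 CPM in 4T1P and 101472 against 36952 CPM in 4T1M; with S100a9 it also defined the neutrophils, by a lower limit that all compared cells met. Of 4 Ifitm genes, only Ifitm6 passed 2-fold in both libraries, Ifitm1 standing at log2 ratios of 0.54 and 0.84, Ifitm2 at 0.71 and 0.76, and Ifitm3 at 1.20 and 0.78. Under TMM and DESeq2 scaling all 4 passed.

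The lists of effector enzymes each held 1 gene past 2-fold higher in both libraries, where 2.09% of all genes compared were higher and 8.34% lower. Of 7 genes of the NADPH oxidase, which makes superoxide in phagosomes, only Rac2 was past 2-fold higher in both libraries (909 against 388 CPM in 4T1P, 905 against 417 CPM in 4T1M), and Cybb, its catalytic chain, had log2 ratios of 0.20 and -0.93. Of 8 lipid mediator and storage genes, Alox5ap, the 5-lipoxygenase activating protein of leukotriene synthesis, was higher (3069 against 923 CPM, 2293 against 950 CPM), while Ptgs2, the inducible cyclooxygenase of prostaglandin synthesis, and Acsl1, a fatty acid CoA ligase, were lower. Only Ptgs2 of these 2 lower genes stayed past 2-fold with TMM or DESeq2 scaling.

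**Figure D3:**
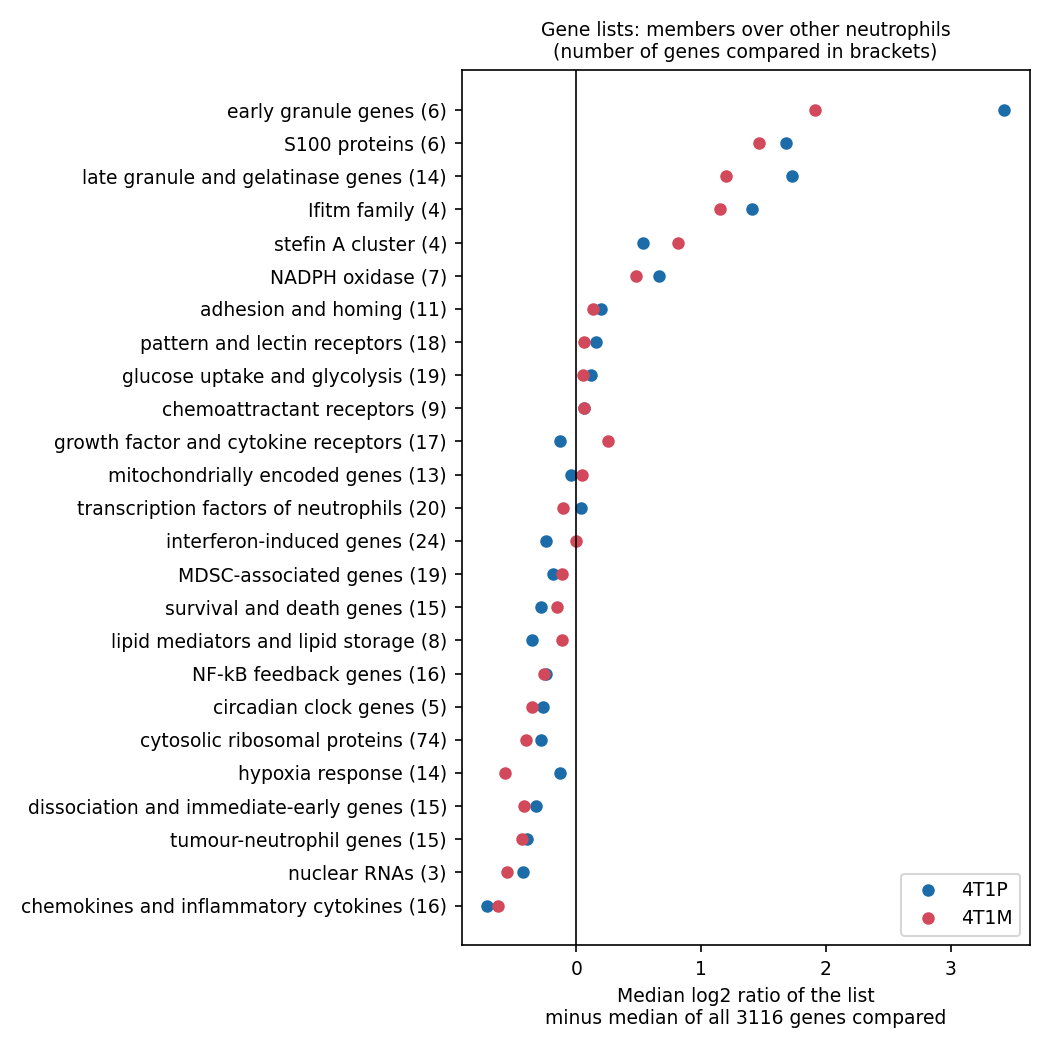
Median log2 ratio of each gene list, members over other neutrophils, minus the median of all 3116 genes compared (x axis), in 4T1P (blue) and 4T1M (red); lists of at least 3 compared genes are shown with their number of genes (y axis), without the cell type markers, the score genes, the other markers and the WAP-domain genes. Early granule, late granule, S100 and Ifitm genes lie above 1 in both libraries, and chemokines and inflammatory cytokines lie lowest of the lists drawn, at -0.71 in 4T1P and -0.63 in 4T1M.

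Many inflammatory genes were lower in members. Of 16 chemokine and inflammatory cytokine genes, 0 were past 2-fold higher and 7 past 2-fold lower in both libraries (5 of them under TMM and DESeq2 scaling), with a median 0.71 below the median gene in 4T1P and 0.63 below it in 4T1M. The 7 were Cxcl1, Ccl3, Il1a, Il1rn, Il23a, Ptgs2 and Saa3, of which Il1a and Il23a also set an upper limit in the choice of neutrophils. Saa3, an acute phase serum amyloid, was at 72.1 CPM in members and 1150 CPM in the others in 4T1P, and at 92.4 and 804 CPM in 4T1M (log2 ratios -3.98 and -3.11). Ccl3, which attracts monocytes and other leukocytes, was at 1773 and 5565 CPM, then 2498 and 7379 CPM (-1.65 and -1.56). Ptgs2 was at 248 and 1010 CPM, then 273 and 1072 CPM (-2.02 and -1.97), and the neutrophil attractant Cxcl1 at 158 and 520 CPM, then 85.7 and 659 CPM (-1.71 and -2.94). Members of both libraries were below the other neutrophils of both in all 4.

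Il1b and Cxcl2 were among the most abundant cytokine transcripts and remained high in members. Il1b was at 7630 against 11842 CPM in 4T1P and 7403 against 10896 CPM in 4T1M, and Cxcl2 at 24676 against 40573 CPM and 23570 against 47886 CPM. Neither was past 2-fold in both libraries. The chemokine receptor Cxcr2, which binds Cxcl1 and Cxcl2, was at 315 against 358 CPM in 4T1P and 445 against 397 CPM in 4T1M, on either side of equality, and above it in both with TMM or DESeq2 scaling. None of 9 chemoattractant receptors and none of 17 growth factor and cytokine receptors passed 2-fold in both libraries in either direction. Of all genes compared, 2.09% were past 2-fold higher and 8.34% lower, and beside these shares such short lists do not set the receptors apart.

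Of the 14 lowest genes described outside the rule, 13 were past 2-fold lower in both libraries. With TMM 9 of them, and with DESeq2 10, remained past 2-fold in both. They included Slc38a1, a glutamine transporter (36.9 against 250 CPM in 4T1P, 59.1 against 255 CPM in 4T1M), Csf1, the macrophage growth factor (141 against 630 CPM, 223 against 696 CPM), Clec4n, the fungal pattern receptor dectin-2 (16.8 against 82.4 CPM, 26.7 against 140 CPM), and F10, clotting factor X (85.5 against 315 CPM, 154 against 527 CPM). Adhesion genes Icam1 and Itgb1 had log2 ratios of -2.13 and -2.0 in 4T1P and -1.46 and -1.55 in 4T1M. Csta3, a stefin-like gene, was lower on 3 UMIs in 4T1P members (log2 ratio -4.32, interval -6.83 to -2.96) and 34 UMIs in 4T1M members (-1.76). The remaining genes were Saa3, Cxcl1 and Ptgs2, given above, Fn1 (fibronectin), Mpeg1 (a pore-forming protein of phagocytes) and Gm20186, a noncoding RNA; the exception was Cxcl10. Among cells of 2000 to 6000 UMIs Itgb1 (-0.90) and Fn1 (0.18) were not past 2-fold lower in 4T1P.

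Stress and housekeeping groups lay near or somewhat below the median gene; of all genes compared, 8.34% were past 2-fold lower in both libraries. Of 14 hypoxia response genes, 3 were past 2-fold lower in both libraries (Hilpda, Ankrd37 and P4ha1; Ankrd37 alone with TMM or DESeq2 scaling) and 0 higher. Of 19 genes of glucose uptake and glycolysis, which hold the score gene Slc2a3, 1 was lower, Hk2, a hexokinase at 40.3 against 137 CPM in 4T1P and 47.6 against 166 CPM in 4T1M. Of 16 NF-kB feedback genes 1 was lower (Icam1), of 15 survival and death genes 4 (Bcl2a1a, Bcl2a1b, Bax and Gadd45b), and of 74 cytosolic ribosomal protein genes 9; none of the latter 2 groups stayed past 2-fold with TMM or DESeq2 scaling. Fos, Jun and the 13 other genes of the early response to handling of tissue were below equality in both libraries by CPM, with 2 past 2-fold lower (Ier3 and Hspa1a), and their median was 0.32 below the median gene in 4T1P and 0.42 below it in 4T1M. Of 15 genes associated with tumor neutrophils 2 were past 2-fold lower (Ccl3 and Hk2), and of 18 associated with suppressive myeloid cells 2 (Ptgs2 and Tgfb1; Tgfb1 only by CPM).

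The other lists were compared with the same 8.34% of all genes. Of 11 genes listed for adhesion and homing 3 were lower (Itga4, Icam1 and Csf1, the last a growth factor that the list also held, while Itgb1 was not in it), of 18 pattern and lectin receptors 1 (Clec4n), of 20 neutrophil transcription factors 2 (Maff and Runx1), of 5 circadian clock genes 1 (Ciart), and of 3 nuclear RNAs 1 (Neat1), with 0 higher in each. Under TMM the adhesion list had 1 higher (Selplg) and 1 lower (Csf1), and the receptor list 2 higher (Clec4a2 and Pilra). None of 13 mitochondrially encoded genes and none of 2 cell cycle genes passed. Of the families of the score genes, 2 of 3 WAP-domain genes were past 2-fold higher, namely the score genes Wfdc17 and Wfdc21 that chose the cells. Retnlg and Prok2, also score genes, were the only genes of the resistin and prokineticin lists with enough UMIs. Of 4 stefin genes compared, 1 (Stfa3) was past 2-fold higher, and 2 were above and 2 below equality in each library by CPM, Stfa2l1 at log2 ratios of -0.53 and -0.01 and Cstb at -1.07 and -0.93. Csta3, the stefin-like gene given above, was not in this list.

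The levels differed by degrees along the score. With the 1727 neutrophils put into 10 bins of like size by score, from the lowest to the highest bin, S100a8 went from 17033 to 116077 CPM and Mmp8 from 57.0 to 931 CPM, while Ccl3 went from 8735 to 1627 CPM and Slc38a1 from 485 to 35.4 CPM. Ly6g and Ngp stayed low over the first 7 bins, at no more than 38.5 and 87.5 CPM, and were at 146 and 211 CPM in the eighth and 611 and 1163 CPM in the highest bin. Saa3 held between 636 and 1323 CPM up to the seventh bin and was at 54.3 CPM in the highest. Cxcr2 was nearly level, between 329 and 438 CPM, and Stfa2 was highest in the ninth bin (1617 CPM) and lower in the last (1093 CPM). The median depth was also higher toward the top, from 2333 UMIs in the lowest bin to 4576 in the highest.

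**Figure D4:**
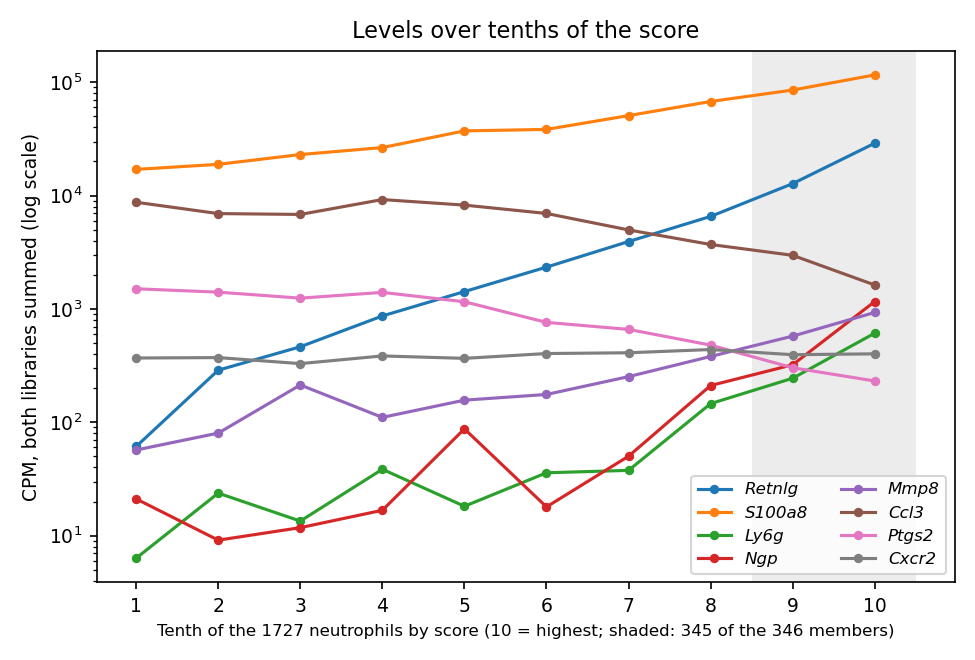
CPM (y axis, log scale, both libraries summed) of 8 genes over 10 bins of the neutrophils by score (x axis, lowest to highest); the shaded bins hold 345 of the 346 members. Retnlg and S100a8 are higher in each later bin, Ly6g and Ngp climb over the last bins, Ccl3 and Ptgs2 slope down, and Cxcr2 stays between 329 and 438 CPM.

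Between the tumors, among genes with at least 100 CPM in the members of a library, Tnf, Slfn5 and Olfm4 had the highest ratios in members, and Ltf, AY036118 and Ngp the lowest. Of 2527 genes with at least 50 UMIs in the members, 50 were at least 2-fold higher in 4T1M (1.98%) and 12 at least 2-fold lower (0.475%), with a median log2 ratio of 0.06 over all of them. With members set at the top 10% of scores the counts were 15 higher and 18 lower of 1637 genes, so that the excess in 4T1M was not kept. Tnf, a cytokine that also set an upper limit in the choice of neutrophils, was at 50.3 CPM in 4T1P and 306 CPM in 4T1M members (log2 ratio 2.58, interval 2.06 to 3.19), and at 174 and 418 CPM in the other neutrophils (1.26). Slfn5, an interferon-induced Schlafen gene, was at 21.8 and 107 CPM in members (2.24) and 52.6 and 185 CPM in the others (1.80). The counting intervals of members and other neutrophils overlapped for Slfn5 (1.46 to 3.24 and 1.45 to 2.19) and did not for Tnf. With 1 library per condition this is no test. The limit on Il1a, Tnf and Il23a also left out 23 neutrophils in 4T1P and 226 in 4T1M, so that it shaped the Tnf values compared.

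Of all 2527 genes compared in members, 1420 were above equality in 4T1M over 4T1P and 1.98% past 2-fold higher. Of 23 interferon-induced genes among them, 23 were above equality and 6 past 2-fold, with a median log2 ratio of 0.73. The minimum of UMIs was set on the members of both libraries together, and genes such as Ifit1 and Cxcl10 met it only through 4T1M, so that the count is tied to the direction; Ifit2, under the minimum, had 9 UMIs in 4T1P and 3 in 4T1M members. In the other neutrophils the median over the same genes was 0.57, with 21 of 23 above equality, so that other neutrophils shared this direction. Gbp2, a guanylate-binding protein, was at 97.3 and 222 CPM in members (1.18) and at 243 and 280 CPM in the others (0.20), and its log2 ratio in members was 0.49 (interval -0.07 to 1.12) among cells of 2000 to 6000 UMIs and 0.76 with Retnlg out of the score. Ifit1, an antiviral protein and one of the limiting genes, was at 10.1 CPM on 6 UMIs in 4T1P and 62.9 CPM on 66 UMIs in 4T1M members. Within each library 0 of 24 interferon-induced genes were past 2-fold higher in members than in other neutrophils in both libraries and 4 past 2-fold lower (Oasl2, Bst2, Gbp5 and Herc6; Bst2 alone with TMM or DESeq2 scaling). Cxcl10, an interferon-induced chemokine, was at 6.71 CPM in members and 124 CPM in the others in 4T1P, and at 86.7 and 112 CPM in 4T1M (log2 ratio -0.37, but 0.09 with TMM and 0.06 with DESeq2 scaling). The members of 4T1P held 4 of its UMIs, 1 cell held 45.7% of those of the other 4T1P neutrophils, and with the top 30% of scores as members the log2 ratio in 4T1P was 0.21.

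Of 6 early granule genes, 3 were past 2-fold lower in 4T1M members (Ltf, Ngp and Serpinb1a) and 1 past 2-fold higher (Olfm4), while 14 late granule genes split 7 above and 7 below equality with none past 2-fold. Ltf, lactoferrin, was at 134 CPM in 4T1P and 44.8 CPM in 4T1M members (log2 ratio -1.58), Ngp at 1228 and 530 CPM (-1.21), and Camp at 133 and 73.3 CPM (-0.85). In the other neutrophils Ngp was higher in 4T1M, at 73.6 against 15.3 CPM, and so was Camp (1.14), while Ltf was lower (-0.74). A single cell held 48.8% of the Ltf UMIs of 4T1P members and 36.2% of those of 4T1M members. Among cells of 2000 to 6000 UMIs the log2 ratio in members was -0.19 for Ngp (interval -0.59 to 0.23), 1.21 for Ltf (-1.09 to 7.17) and -2.08 for Camp (-3.74 to -0.57). All 3 genes also set an upper limit in the choice of neutrophils. Olfm4, a specific granule protein found in a subset of neutrophils, was at 38.6 and 158 CPM in members (2.01) and 76.3 and 99.9 CPM in the others (0.38), in 5.56% and 13.4% of members; with Retnlg out of the score the log2 ratio in members was 1.04 (interval 0.51 to 1.64). Of the other genes with the largest ratios above that level of 100 CPM, Ddx60, Bcl2a1b and Malt1 were higher in 4T1M members (1.18 to 1.30). Reads of Bcl2a1b may be shared with near-identical copies, which was not tested. Lower were the noncoding AY036118 (-1.26), Spp1 (-0.93), Cfp (-0.89), Cxcl1 (-0.88) and Klf2 (-0.72). Among cells of 2000 to 6000 UMIs Malt1 was at 0.39 (interval -0.13 to 0.98), AY036118 at -0.42 (-0.96 to 0.17) and Cxcl1 at 0.11 (-0.71 to 1.08). A single cell held 42.6% of the Cxcl1 UMIs of 4T1P members. With Retnlg out of the score Bcl2a1b was at 0.94 and Malt1 at 0.97. Klf2 is a transcription factor of quiescent leukocytes and Spp1 encodes osteopontin.

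**Figure D5:**
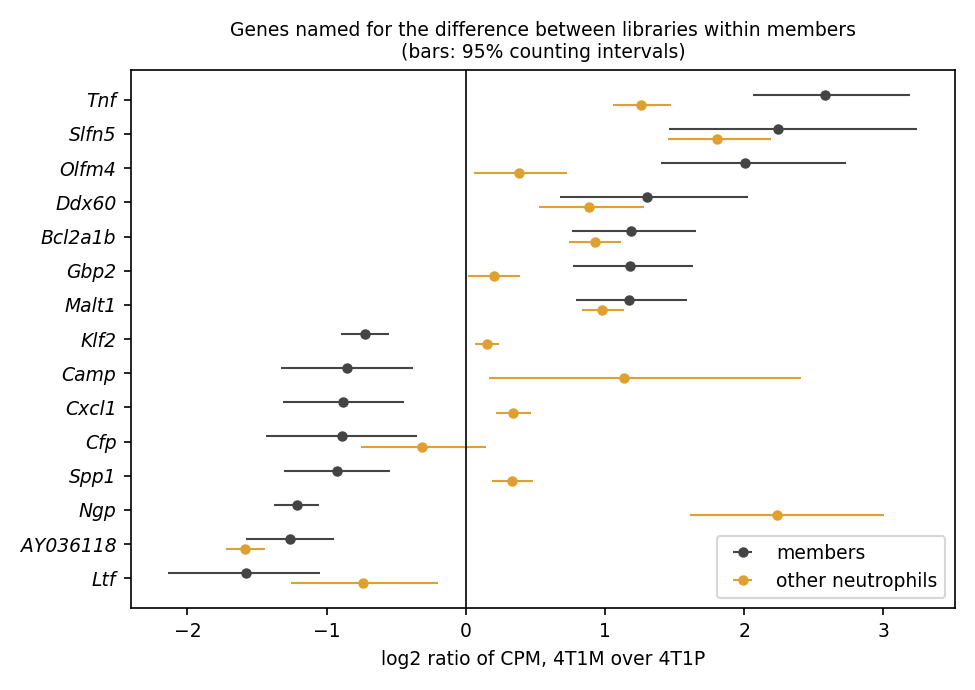
Log2 ratio of CPM, 4T1M over 4T1P (x axis), of 7 genes highest and 8 lowest in 4T1M members (y axis), in members (dark) and in the other neutrophils (yellow), with 95% counting intervals. Ngp and Camp lie below 0 in members and above 0 in the other neutrophils, and Olfm4 is 2.01 in members and 0.38 in the others.

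Neutrophils left out by the limits had their own levels of the marker genes. Of neutrophils rich in Camp, Ngp and Ltf, 1 of 18 in 4T1P and 11 of 46 in 4T1M (23.9%) reached the score of the members, with Retnlg at 5274 and 7722 CPM, Wfdc17 at 991 and 2636 CPM and Ly6g at 1383 and 1282 CPM over all cells of that kind. Their Ly6g was above that of the members and their Retnlg and Wfdc17 below. Other genes high in members were higher still in them: Ifitm6 was at 6255 and 5353 CPM, Cd177 at 909 and 854 CPM, Lcn2 at 18706 and 13663 CPM and Anxa1 at 8905 and 6233 CPM, whereas Mmp8, at 396 and 566 CPM, was below the members. Of interferon-high neutrophils, 4 of 51 in 4T1P and 6 of 168 in 4T1M reached it, and of those high in Il1a, Tnf and Il23a 0 of 23 (an exact binomial upper limit of 14.8%) and 1 of 226, with Retnlg at 805 and 755 CPM. Macrophages reached it in 1 of 635 and 2 of 761 cells.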

How the data were processed

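Single-cell RNA was counted by the authors with Cell Ranger (version 4.0.0 in the submitters' processing notes and the matrix header) on mm10 (GRCm38), and the deposited values are raw UMI counts per gene and barcode for 32285 genes, 1 library per condition. Filters kept barcodes of 500 to 5000 genes whose mitochondrial share was no higher than 10%; doublets were not removed. UMIs were summed per library over members and over the other neutrophils and given as CPM. Log2 ratios used 0.5 UMI added to each sum, with exact conditional 95% intervals; shares have exact binomial (Clopper-Pearson) intervals. Both cover counting error only, and with 1 library per condition no test was run. Genes with at least 50 UMIs per library were compared, and a gene was counted as past 2-fold only if it was so in both libraries, or, between libraries, in the members. Named genes were those of the score and the other markers, the 15 top and 15 bottom genes by mean log2 ratio among genes outside the rule with a level of at least 100 CPM in members or in the others, and the 8 highest and 8 lowest between libraries among genes of at least 100 CPM in the members of a library; further genes come from the lists. A few genes that this rule names are not reported here. The members and all lists were chosen with earlier results of these data known. Cells were thinned to 1000 UMIs for shares of cells with a UMI. TMM (edgeR 4.0.16) and DESeq2 1.42.0 size factors served as other scalings only, in R 4.3.3; the rest used Python 3.11.15, numpy 2.4.6, scipy 1.17.1, pandas 2.3.3, scanpy 1.11.5 and matplotlib 3.10.9. The summing and ratios were checked on simulated data. Gene positions are from GENCODE M21, which held 32158 of the 32285 gene IDs; promoters are RefSeq entries of GRCm38.p6, found for 13 of the 14 highest and 10 of the 14 lowest genes reported. A symbol shared by several features occurred for 78 features.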

Additional observations from a re-analysis of the deposited data

Results flagged for a closer look

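Olfm4 differed in direction between the libraries, and this difference was not tested. Its log2 ratio, members over other neutrophils, was -0.96 in 4T1P (38.6 against 76.3 CPM, counting interval -1.71 to -0.32) and 0.67 in 4T1M (158 against 99.9 CPM, 0.39 to 0.94). One cell held 39.1% of its UMIs in 4T1P members and 20.5% in 4T1M members.

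Cells outside the definition also reached the score of the members. Among neutrophils rich in Camp, Ngp and Ltf of 4T1M 23.9% did (11 of 46, interval 12.6% to 38.8%), and among interferon-high neutrophils 7.84% in 4T1P (4 of 51) and 3.57% in 4T1M (6 of 168).

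Barcodes removed by the filters held such cells too. Of barcodes under 500 genes that met the neutrophil limits, 30.6% in 4T1P (26 of 85, interval 21.05% to 41.5%) and 20.8% in 4T1M (36 of 173, 15.02% to 27.6%) reached the score, and of those above the mitochondrial limit 11.7% (13 of 111) and 9.22% (13 of 141).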

How the results depend on the processing

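No paired analysis was possible because each condition is 1 library, and for the same reason no replicate could be left out. The log2 ratio of the members' share, 4T1M over 4T1P, went from -0.09 to -0.39 with the top 10% of scores and to 0.40 among cells of 2000 to 6000 UMIs, a setting chosen after seeing the data. The count of genes past 2-fold higher in both libraries (65) became 30 with Retnlg out of the score, 180 with TMM, 171 with DESeq2 size factors, 273 with no minimum of UMIs, 32 with at least 200 UMIs, and, in settings chosen after seeing the data, 27 among cells of 2000 to 6000 UMIs and 24 among cells with no UMI of Camp, Ngp or Ltf. The count lower (260) became 404 with the top 10%, 140 with Retnlg out of the score, 146 when cells were chosen on 50% of the UMIs and measured on the rest, 160 with S100a8 and S100a9 at 3% or more, 53 with TMM, 58 with DESeq2 size factors, 1472 with no minimum, 74 with at least 200 UMIs, 86 among cells of 2000 to 6000 UMIs and 111 without granule UMIs. The minimum also sets how many genes are compared, 11803 with none and 1095 with 200 UMIs. Between libraries, the 50 genes higher in 4T1M members became 15 with the top 10% (18 lower there), 1467 with no minimum and 6 with 200 UMIs, and the 12 lower became 21 with the top 30%, 1553 with no minimum and 2 with 200 UMIs. The cause of the other shifts was not tested.

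Of the values past 2-fold by CPM, 7 changed direction. These were Cxcl10 in 4T1P with the top 30% (0.21), the WAP-domain median in 4T1P with no minimum (-0.15), Fn1 (0.18) and the early granule median (-0.58) in 4T1P among cells of 2000 to 6000 UMIs, the early granule median without granule UMIs (-0.85 in 4T1P and -0.30 in 4T1M), and Ltf between libraries in members among cells of 2000 to 6000 UMIs (1.21). The counting intervals of Cxcl10 (-0.25 to 0.67), Fn1 (-0.86 to 1.03) and Ltf (-1.09 to 7.17) spanned equality, so their direction there was not settled. Other sign changes were in values under 2-fold, such as Cxcl1 between libraries in members (0.11 among cells of 2000 to 6000 UMIs) and, under TMM or DESeq2 scaling, list medians near the median gene. Over all settings the sign was kept in 1667 of 1672 values of named genes, 333 of 336 between libraries and 1184 of 1218 list medians. Most named genes were picked for large ratios in these same data, and many settings kept most of the same cells or only rescaled them. Most signs were thus likely to be kept, and these counts are no test of stability. Removing the highest doublet scores took out 2 members in 4T1P and 5 in 4T1M.

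One pooled library per condition leaves the spread between mice unknown. The deeper members have a better chance of showing a gene at all.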
